A study of Mus musculus with 4 samples.

Results

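The probes described here are a library of 256 DNA oligonucleotides built on a mutated p53 binding site and a library of 256 built on the unmutated site. They were found by name, and each mutated probe was paired with the unmutated probe that carries the same 4 varied bases. The 512 probes are part of 6126 probe names on each array, and every probe was printed as 10 replicate spots. The series placed an antibody on arrays of synthetic DNA and read the bound antibody as fluorescence of an Alexa 488 label. There were 4 arrays: an anti-CPD antibody (1:400 dilution) on a UV and on a non-UV array, and an anti-6-4PP antibody (1:80 dilution) on a UV and on a non-UV array. The mouse in the labels is the source of the antibodies, and the DNA is designed, not taken from cells or tissue. The sources used here give no UV dose, no scanner settings and no word on whether the printed DNA was double-stranded. With 1 array for each antibody and condition, differences between conditions are unreplicated.

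Conditions follow the field "array condition". For the 6-4PP antibody both titles give the opposite, so every statement on which 6-4PP array was irradiated rests on that field.

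Ultraviolet light joins neighbouring pyrimidines on a DNA strand into cyclobutane pyrimidine dimers (CPD) and pyrimidine (6-4) pyrimidone photoproducts (6-4PP). TT steps are known as frequent sites of CPD, and TC steps as frequent sites of 6-4PP. The tumour suppressor p53 is a transcription factor that binds DNA as a tetramer at a pair of half-sites. Each half-site has a core of C, then A or T at both middle places, then G, between purines on the 5′ side and pyrimidines on the 3′ side.

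The pairs are shown here because the report turns on them: GTTT and AGTC had large increases in 6-4PP signal with the mutation, CTAG was lower with it, and CATG holds no dipyrimidine. Capitals mark the 4 varied bases and the 3 changed bases, and all other bases are in lower case, 5′ to 3′.
p53_mut_60_GTTT: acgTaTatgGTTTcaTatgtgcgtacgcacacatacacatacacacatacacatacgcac
p53_60_GTTT: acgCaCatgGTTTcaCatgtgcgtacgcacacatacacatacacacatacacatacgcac
p53_mut_60_AGTC: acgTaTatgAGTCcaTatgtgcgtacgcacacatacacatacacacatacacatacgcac
p53_60_AGTC: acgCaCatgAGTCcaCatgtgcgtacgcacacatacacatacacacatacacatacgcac
p53_mut_60_CTAG: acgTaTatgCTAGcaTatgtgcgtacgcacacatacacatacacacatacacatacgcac
p53_60_CTAG: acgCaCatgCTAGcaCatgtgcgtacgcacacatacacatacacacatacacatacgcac
p53_mut_60_CATG: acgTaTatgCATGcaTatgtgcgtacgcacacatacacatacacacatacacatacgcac
p53_60_CATG: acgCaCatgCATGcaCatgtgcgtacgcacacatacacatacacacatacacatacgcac

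In all 256 pairs the libraries differed only by the substitutions C4T, C6T and C16T, counted from 1 at the 5′ end of the 60 bases, with the unmutated base first. The varied bases stand at positions 10 to 13, between a G and a C. Positions 6 to 9 and 16 to 19 read TATG in the mutated backbone and CATG in the unmutated one. No substitution makes or removes a dipyrimidine. Outside the varied bases and the bases next to them, neither backbone holds a dipyrimidine on either strand, so the probes of a pair carry the same steps on the same strands. Counted on both strands, 16 pairs had no dipyrimidine, 160 had 2 and 80 had 4. The substitutions also change self-complementarity. In the unmutated backbone bases 1 to 9 are the reverse complement of bases 16 to 24, an inverted repeat with arms of 9 bases and a spacer of 6. In the mutated backbone the longest such arms that reach the varied bases are 5 bases, 5 to 9 and 14 to 18, with a spacer of 4. These arms leave out the varied bases. Where the varied bases are their own reverse complement, as in CTAG and CATG, the mutated repeat runs on through them without a spacer. Whether any probe folds on the array was not measured.

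On the 6-4PP UV array the mutated probes were mostly brighter. The median over the 256 probes of a library was 15115.5 with the mutation (range 4128.5 to 65535), against 13025 without it (range 4712 to 65535). The value 65535 is the ceiling of the scale and was reached by the median of 22 mutated and 16 unmutated probes. The median log2 difference, mutated minus unmutated, was 0.16, and it was 0.18 with the deposited spatially adjusted intensity. That adjustment rescales spots at the ceiling by the local median alone, so it does not recover their signal. The mutated probe was the brighter one in 190 pairs, the dimmer one in 50, and both stood at the ceiling in 16. Within a probe, spots had a median log2 SD of 0.27 in the mutated and 0.36 in the unmutated library.

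Replicate spots of the probes of a pair were compared on each array by an exact two-sided permutation test on the mean log2 intensity. P-values were adjusted by Benjamini-Hochberg over 2560 pairs from 10 sets of site and changed-site libraries, and pairs under 0.05 were called. Such a test compares spots of 1 array and not irradiations. The share called over all 2560 pairs includes the p53 pairs themselves and a related p53 design (p53 E). That design had 138 of its 256 pairs called brighter on the 6-4PP UV array. On the 6-4PP UV array 54 of the 256 p53 pairs were called brighter with the mutation (21.1%), where 7.93% of all 2560 pairs were called in that direction. Called dimmer were 2 (0.781%), against 2.42% of all pairs. The spatially adjusted intensity also gave 54 brighter and 2 dimmer p53 pairs, against 8.48% and 2.54% of all pairs. Of the 54 brighter pairs, 41 were called with both intensities. The 54 include pairs with spots at the ceiling, and without such pairs 44 were called. With a minimum log2 difference of 0.5 the count was 24. Leaving out pairs also lowered the number tested, and shares over all pairs were not taken for the counts of 44 and 24.

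The GTTT pair had 1 of the largest increases among pairs below the ceiling. On the 6-4PP UV array the mutated GTTT probe read 43053.5 ± 6072 and the unmutated one 23511.5 ± 3507 (SD, 10 spots each). Its mutated spots lay between 34908 and 55413 and its unmutated spots between 21751 and 34037, with no overlap. The ratio of medians was 1.83, the mean log2 difference 0.81 (SE 0.085), and the adjusted p 0.000433 in the exact permutation test. On the 6-4PP non-UV array the same probes read 44 ± 2.35 and 41 ± 7.18 (SD, 10 spots each), in the same order. On the CPD UV array they read 9131.5 ± 1690 and 8399.5 ± 1287, and on the CPD non-UV array 43.5 ± 7.61 and 34.5 ± 5.35. The mutated GTTT probe thus had the higher median on each of the 4 arrays, and only on the 6-4PP UV array did the spots of the probes not overlap.

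The AGTC pair had the highest median difference, 0.90, with 56541.5 ± 8688 for the mutated and 30309.5 ± 17351 for the unmutated probe (SD, 10 spots each, 6-4PP UV array). The unmutated spots ran from 10886 to the ceiling and the mutated ones from 42953 to the ceiling, so the groups of spots overlapped. The adjusted p was 0.00659 (exact permutation test). On the CPD UV array the same pair had 4235.5 ± 2190 with the mutation and 4638 ± 2893 without it, a difference of -0.13, and 0.02 with the adjusted intensity. The AGTC spots of both probes overlapped on that array, and the difference between antibodies was not tested.

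TTCT, GGTT and TTTT completed the 5 highest differences. Mutated TTCT read 44170 ± 3298 and unmutated TTCT 25555 ± 13352 (SD, 10 spots each), a difference of 0.79 with an adjusted p of 0.0117 (exact permutation test). One unmutated TTCT spot stood at the ceiling while the mutated spots ended at 50281. For GGTT the values were 63823 ± 8705 with the mutation and 38823.5 ± 8237 without it (SD, 10 spots each), with 5 mutated spots at the ceiling. For TTTT they were 37553 ± 7014 (10 spots) and 23035 ± 2599 (9 spots), with an adjusted p of 0.000433 (exact permutation test). The mutated TTTT spots began at 31128 and the unmutated ones ended at 28229. All 5 pairs carry 4 dipyrimidine steps, and each of them has at least 2 on the listed strand.

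Lower signal with the mutation was found mainly where dipyrimidines were few. The lowest differences on the 6-4PP UV array below the ceiling were -0.69 for TGTA, -0.65 for CAGG, -0.62 for CATA, -0.58 for CTAG and -0.49 for TATA. The pairs that end in TA hold no dipyrimidine, and CAGG and CTAG hold 2. The pairs called dimmer were CTAG and TGTA. Mutated CTAG read 4747 ± 1649 (9 spots) and unmutated CTAG 7074 ± 1516 (10 spots), with an adjusted p of 0.0261 (exact permutation test). Mutated TGTA read 4770 ± 1306 and unmutated TGTA 7698 ± 1337 (SD, 10 spots each), with an adjusted p of 0.0212 (exact permutation test). In both pairs the ranges of spots overlapped. With the adjusted intensity TGTA had a difference of -0.26 and was not called (adjusted p 0.527, exact permutation test), CTAG kept its call, and TATA was called at -0.42.

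The 16 pairs without a dipyrimidine were dimmer with the mutation in 13 cases, with medians of 5037 for the mutated and 5949 for the unmutated probes and a median log2 difference of -0.28. CATG, 1 of these, had 5115 ± 1880 with the mutation and 6327.5 ± 1818 without it (SD, 10 spots each), and its adjusted p was 0.193 (exact permutation test). With 2 dipyrimidines the medians were 12441 and 10936 for mutated and unmutated probes, and the mutated probe was brighter in 120 of 160 pairs. With 4 they were 29804 and 23092, and the mutated probe was brighter in 67 of 80 pairs and dimmer in 2. The median differences of these classes were 0.13 and 0.26. The rise over the probes without a dipyrimidine was therefore steeper with the mutation. Probes with 2 steps stood 2.47 times as high as the class without a step in the mutated library and 1.84 times in the unmutated one. Probes with 4 steps stood 5.92 times as high in the mutated and 3.88 times in the unmutated library.

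Strand went with the size of the difference. Of the pairs with steps on the listed strand only, 64 in number, 61 were brighter with the mutation and 30 were called brighter (median difference 0.32). The 64 pairs with steps on the opposite strand only are the reverse complements of these in the varied bases, and 43 of them were brighter and 4 called brighter (median difference 0.10). Both groups hold the same numbers of steps and had no median at the ceiling. The called pairs by number of listed-strand steps were 4 of 80 with none, 7 of 80 with 1, 23 of 64 with 2, 9 of 16 with 3 and 11 of 16 with 4. Over all 256 p53 pairs 21.1% were called brighter, and over all 2560 pairs 7.93%. The classes with 1, 2 and 3 such steps held 10, 8 and 4 pairs with a median at the ceiling, where a difference cannot be read. By pattern, the 16 pairs with pyrimidines at all varied positions had a median difference of 0.49, and the mutated probe was the brighter one in all 16. The 16 with purines at all varied positions had a median difference of 0.15, 15 of them brighter and 2 called.

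The same comparison within a library gave the size of the strand difference. In the mutated library the probe with its steps on the listed strand exceeded its reverse complement in 64 of 64 cases on the 6-4PP UV array, with a median ratio of 1.59 and medians of 18604 and 13178. In the unmutated library it did so in 61 of 64 cases, with a median ratio of 1.28 and medians of 14698 and 11986. The base next to the varied bases on the 5′ side, read on the strand that carries the steps, is G for both members of such a comparison. In the mutated backbone both members share the 5 bases on each side, since bases 5 to 9 and 14 to 18 are reverse complements. Bases further out differ there, and in the unmutated backbone the differences begin closer to the varied bases. On the CPD UV array the median ratios were 1.36 in the mutated and 1.18 in the unmutated library. With the adjusted intensity they were 1.15 and 1.08 on that array.

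The brightest 6-4PP probes were largely the same in both libraries. All 16 unmutated probes at the ceiling had a mutated partner at the ceiling as well. A further 6 mutated probes stood at the ceiling. Their unmutated partners read 63416 for AATT, 62177.5 for GACT, 54419 for AGCC, 46498.5 for ATTC, 45986 for GATT and 43524.5 for ATTA. Of the 22 pairs, 16 have T as the last varied base, which forms a TC step with the following C, and 15 have A as the first. Probes at the ceiling have no order, and their differences on that scale are not known. TGAT and GGAT, as well as GGCT and the fixed ATCA, were at the ceiling in both libraries. The dimmest mutated probes were TATA at 4128.5, TGCA at 4334.5 and CATA at 4429. The dimmest unmutated probes were CACA at 4712, CGCG at 5057 and GCCG at 5192.5. Across the 256 varied sequences, log2 levels of the mutated and unmutated libraries had a Pearson r of 0.97 and a Spearman rho of 0.98 on this array, over probes that share an array and their varied bases.

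A least-squares description of log2 intensity by the number of each step, fitted in each library, put TC first with the 6-4PP antibody. TC added 1.14 per step in the mutated and 1.03 in the unmutated library. TT added 0.54 and 0.37, CC 0.29 and 0.20, and CT 0.26 and 0.22, mutated first in each case. The 4 coefficients were thus larger in the mutated library, and the value at no step was lower there, at 12.50 against 12.59. Medians at the ceiling, 22 mutated and 16 unmutated, limit this comparison, since the signal of those probes is not known. The fits had an R squared of 0.63 and 0.60 in the mutated and unmutated libraries.

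On the CPD UV array the libraries differed less, and in the other direction. The library medians were 3807.5 with the mutation (range 1038.5 to 12609) and 4098 without it (range 1728.5 to 11120). The median log2 difference was -0.07, and the mutated probe was dimmer in 149 pairs and brighter in 107. The test called 1 pair dimmer, CGCA, against 0.0781% of all 2560 pairs, and 0 brighter, against 0.0781%. At an unadjusted p under 0.05 by the same exact permutation test, 18 p53 pairs were dimmer and 7 brighter. In the other sets of libraries, of 256 pairs each, these counts ran from 1 to 19 dimmer and from 5 to 31 brighter. Mutated CGCA read 2377 ± 716 and unmutated CGCA 3872.5 ± 678 (SD, 10 spots each), and CGCA holds no dipyrimidine. Their ranges, 907 to 2983 and 2903 to 4902 for mutated and unmutated spots, overlapped at the edge.

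Position on the array moved with these CPD values. The median SD over spots was 0.67 in the mutated and 0.66 in the unmutated library, and 0.26 and 0.28 after the spatial adjustment. Across the 256 pairs the CPD UV difference had a Pearson r of 0.75 with the difference in the local median intensity around the spots, and of -0.15 once adjusted. The 5 highest differences as read were 1.01 for TGAG, 0.81 for GCCT, 0.80 for GGAT, 0.72 for GGTA and 0.70 for CGTG. In that order they were -0.095, 0.19, -0.030, -0.059 and -0.29 after adjustment. The 5 lowest as read were -1.39 for CGGG, -1.26 for GCGG, -1.13 for GTCG, -1.04 for CACT and -1.03 for GGGA, and after adjustment -0.20, -0.37, -0.16, -0.14 and -0.40. None of these 10 pairs was called with either intensity. The adjusted intensity kept the direction of the library difference, with a median of -0.10 and 172 pairs dimmer. It called 6 pairs dimmer (2.34%), against 0.508% of all pairs, and 1 brighter (0.391%), against 1.05% of all pairs. The difference was -0.55 for CGCA, -0.45 for AACA, -0.43 for AGAG, -0.67 for CCGG, -0.74 for GACA and -0.20 for GCGT, and 0.24 for AACC, the brighter one.

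CPD levels were highest with TT in both libraries. The brightest mutated probes were ATTT at 12609 ± 2207, TTTT at 11684 ± 1445 and ATTA at 11572 ± 1744 (SD, 10 spots each). The brightest unmutated ones were TTTT at 11120 ± 1001, ATTT at 10109 ± 1359 and ATTG at 10030 ± 1598 (SD, 10 spots each). As read, GCGG at 1038.5, CGGG at 1274 and GCGC at 1628 were the dimmest mutated probes, and GTGC at 1728.5, GGCC at 1747.5 and TGGG at 1770.5 the dimmest unmutated ones. With the adjusted intensity the lowest median was 1746 in the mutated and 1949 in the unmutated library, so these low values depend on the adjustment. In the step description TT added 0.63 per step with the mutation and 0.51 without it, TC 0.26 and 0.18, CT 0.15 in both, and CC -0.13 and -0.17. By number of dipyrimidines, the medians for mutated and unmutated probes were 2613.5 and 2990 without a step, 3682 and 4134.5 with 2, and 4473 and 4559.5 with 4. The median difference was -0.13, -0.10 and 0.06 in that order, and -0.26, -0.14 and 0.01 with the adjusted intensity.

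On the non-UV arrays the mutated probes were also brighter, at far lower intensity. The 6-4PP non-UV medians were 43 for the mutated library (range 37.5 to 52.5) and 37 for the unmutated one (range 32 to 45). The mutated probe was brighter in 249 of 256 pairs, with a median log2 difference of 0.21, and 119 pairs were called brighter (46.5%), against 10.2% of all 2560 pairs. Called dimmer were 0, against 4.49% of all pairs, and at an unadjusted p under 0.05 by the same exact permutation test also 0. In the other sets of libraries that unadjusted dimmer count ran from 0 to 81 of 256 pairs. With the difference of medians as statistic 47 were called brighter, and with a minimum log2 difference of 0.5 the count was 0. Shares over all pairs were not taken for these alternatives. With the adjusted intensity 128 were called brighter, against 10.8% of all pairs, and 110 of these were called with both. Dimmer were 0 with that intensity as well, against 5.16% of all pairs. By number of dipyrimidines the median differences lay close together, at 0.23, 0.20 and 0.24 for 0, 2 and 4 steps. CTTT had the highest difference, 0.54, with 51 ± 5.87 for the mutated and 35 ± 6.45 for the unmutated probe (SD, 10 spots each). CTAG, which was dimmer with the mutation on the 6-4PP UV array, was brighter here, at 46.5 ± 4.72 with the mutation and 33.5 ± 3.41 without it (SD, 10 spots each), with an adjusted p of 0.0027 (exact permutation test). CATG also had medians in opposite order on these arrays, at 44 ± 5.75 (9 spots) with the mutation and 35 ± 4.14 (10 spots) without it on the non-UV array. Of the 54 pairs called brighter on the 6-4PP UV array, 28 were among the 119 of the non-UV array, which is 51.9% of the first and 23.5% of the second list. Those shares lie near the shares over all 256 p53 pairs, 46.5% called brighter on the non-UV array and 21.1% on the UV array. Pearson's r between the differences on these arrays was 0.05 across pairs.

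On the CPD non-UV array the medians were 30 with the mutation and 28 without it, with 195 pairs brighter, 52 dimmer and a median difference of 0.10. Called brighter were 13 (5.08%), against 1.91% of all pairs, and dimmer 0, against 0.391%. At an unadjusted p under 0.05 by the same exact permutation test, 47 were brighter and 1 dimmer. In the other sets of libraries, of 256 pairs each, these counts ran from 2 to 83 brighter and from 1 to 23 dimmer. With the difference of medians as statistic 0 were called brighter, and with a minimum log2 difference of 0.5 the count was 1, again without a share over all pairs. The adjusted intensity called 29 brighter (11.3%), against 4.22% of all pairs, and 0 dimmer, against 0.664%. At 4 steps the median difference was 0.14, and it was 0.03 for pairs without a step. TT added 0.16 per step on the log2 scale in the mutated and 0.07 in the unmutated library.

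Over all probes of a library, the median gain of UV over non-UV was close in both libraries for 6-4PP and lower with the mutation for CPD. For 6-4PP the median UV minus non-UV log2 difference was 8.51 over mutated and 8.49 over unmutated probes, and for CPD 6.998 and 7.15. All 256 probes of each library were brighter on the UV array with either antibody. Without a dipyrimidine the 6-4PP gain was 6.90 in the mutated and 7.34 in the unmutated library, and with 4 it was 9.35 and 9.30. A gain between arrays includes any difference in scanner settings.

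The 10 probes fixed by their varied bases give examples across step types. On the 6-4PP UV array, AAAA, with T runs on the opposite strand, read 20044.5 ± 5318.5 with the mutation and 19001.5 ± 2670 without it (SD, 10 spots each). CCCC read 16514 ± 3274 (9 spots) and 13196.5 ± 1928 (10 spots), and GGGG 10285.5 ± 2983 and 11189.5 ± 1002 (SD, 10 spots each). The ATTA pair, at the ceiling with the mutation, had 43524.5 ± 9254 without it and was not called (adjusted p 0.139, exact permutation test). GTTG read 9575.5 and 8993.5, GCCA 7369.5 and 6388, and GCTG 5586 and 7065.5, mutated first. The AAAA difference was 0.08 by medians and -0.13 by the mean of log2 spot values, and GGGG had -0.12 as read and 0.039 adjusted. Of the fixed pairs only TTTT was called on the 6-4PP UV array, and none was called on the CPD UV array with either intensity. On the CPD UV array the log2 differences were 0.57 for CCCC, 0.33 for ATTA, 0.26 for AAAA, 0.07 for TTTT, -0.02 for ATCA, -0.11 for GGGG, -0.21 for GCCA, -0.23 for GTTG, -0.24 for CATG and -0.38 for GCTG.

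A check on spots outside the pairs was possible for 64 pairs, those with T as the first varied base. Their sequences were printed a second time under names of the p53 E design, in 10 other spots on the same arrays. On the 6-4PP UV array the median difference of these 64 pairs was 0.25 under their own names and 0.25 under the second names, with 53 and 51 pairs brighter. The differences had a Pearson r of 0.81 and the same sign in 56 of 64 pairs. TTCT repeated at 0.89, TTTT at 0.56, TGTA at -0.53 and TATA at -0.64. On the 6-4PP non-UV array 60 and 64 of the 64 were brighter, while the Pearson r of the differences was 0.20, so the direction recurred in most pairs and the order of the pairs much less. On the CPD UV array the medians were -0.08 and 0.02 with r at 0.09, and with the adjusted intensity -0.07 and -0.11 with r at 0.46.

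The other site and changed-site libraries are given as a description, without a test of their difference from p53. In the 8 MITF and TBP library pairs the median difference on the 6-4PP UV array ran from -0.11 to 0.01, and 33.4% of their 2048 pairs were brighter with the changed site. At most 1.17% of the pairs of such a library were called brighter there. On the 6-4PP non-UV array their medians ran from -0.07 to 0.07, and at most 6.25% of the pairs of such a library were called brighter. The p53 E design has the same 3 substitutions with the varied bases shifted by 1 position, and it shares the 64 sequences above. With the 6-4PP antibody its median difference was 0.51 under UV and 0.20 without UV, with 138 and 103 of 256 pairs called brighter. With the CPD antibody under UV its median difference was 0.11, with 167 pairs brighter and 89 dimmer, the opposite direction to that of the p53 pairs described here. With the adjusted intensity it was 0.0022 there, with 129 brighter and 127 dimmer.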

How the data were processed

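Each array was deposited as a table with 1 line per spot, holding the probe's sequence, flags and Alexa 488 intensity. Per the file headers, the deposited intensity was given as normalized, and a second deposited intensity was adjusted by a local median. At 243338 spots the second equalled the first times the array median over the local median (largest relative gap 5.1e-15). The Cy3 column is 1 throughout, so no correction for the amount of DNA could be seen. No scanner, software or irradiation is named in those sources.

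From these values the median over unflagged spots was taken per probe, with the sample SD over spots. Spots of paired probes were compared by an exact two-sided permutation test on the mean log2 intensity, over 184756 divisions of 10 against 10 spots, with at least 5 unflagged spots a probe. The smallest p this allows is 1.08e-05. Benjamini-Hochberg adjustment ran over 2560 pairs per array, and pairs under 0.05 were called. The test was tested on simulated data. Python 3.11.15, numpy 2.4.6 and pandas 2.3.3 were used.

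Each array had 62976 spots, and 10 spots per probe set the precision. Flagged spots of p53 probes numbered 11 mutated and 19 unmutated with 6-4PP under UV, 68 and 42 with 6-4PP without UV, and 0 with CPD. The array medians over all probes were 4193 (CPD UV), 30 (CPD non-UV), 15228 (6-4PP UV) and 56.5 (6-4PP non-UV). Named pairs were, per UV array, the 5 highest and 5 lowest differences among pairs with at least 8 spots a probe and medians below the ceiling, the 3 brightest and 3 dimmest probes of each library, and 10 fixed sequences. Other pairs, such as further called CPD pairs, CTTT and the probes at the ceiling, were named after their values were seen, and so were the classes by strand. The members and lists were chosen with earlier results of these data known. Alternatives were the adjusted intensity, keeping flagged spots, leaving out pairs with a spot at the ceiling, the difference of medians as statistic, a minimum log2 difference of 0.5, the mean of log2 spot values, centring on probes without a dipyrimidine, and the condition read from the title.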

Additional observations from a re-analysis of the deposited data

Results flagged for a closer look

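The direction of the median mutated minus unmutated difference was not the same with both antibodies on the UV arrays. The median log2 difference over the 256 pairs was -0.066 with the CPD antibody and 0.16 with the 6-4PP antibody. By dipyrimidine content, CPD and 6-4PP had -0.13 and -0.28 with none, -0.10 and 0.13 with 2, and 0.06 and 0.26 with 4. The signs thus differed only in the class with 2. In the 64 pairs printed a second time the CPD median was -0.08 under their own names and 0.02 under the second names, and -0.07 and -0.11 adjusted. With 1 array per antibody, the difference between antibodies was not tested. Across the pairs, the CPD UV and 6-4PP UV differences had a Pearson r of 0.25, and of 0.43 with the adjusted intensity.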

How the results depend on the processing

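Of 88 alternative values for the library differences, counts and gains, 72 kept their direction and their call (counts within 1.5 times), and of 117 for single pairs 108 did. These totals include alternatives that could not change a value. Keeping flagged spots changes nothing on the CPD arrays, which had 0 flagged spots. Leaving out the ceiling can matter only on the 6-4PP UV array, since the other arrays had 0 spots there. Sizes moved more: the CPD UV difference of CGGG, -1.39 as read, was -0.20 adjusted, and that of GCCT, 0.81 as read, was 0.19. With the spatially adjusted intensity CPD UV had 1 pair called brighter and 6 dimmer, and CPD non-UV 29 brighter. With the difference of medians as statistic CPD UV had 0 dimmer pairs, CPD non-UV 0 brighter, 6-4PP UV 1 dimmer and 6-4PP non-UV 47 brighter. With a minimum log2 difference of 0.5, 6-4PP UV kept a count of 24 brighter, CPD non-UV 1 and 6-4PP non-UV 0. Shares over all pairs were not taken for the median statistic or the minimum difference. Centred on probes without a dipyrimidine, the UV minus non-UV difference was 0.61 (mutated) and 0.77 (unmutated) for CPD, and 2.01 and 1.98 for 6-4PP. With the condition read from the titles, the 6-4PP difference turned to -8.51 in the mutated and -8.49 in the unmutated library. With the adjusted intensity the CPD UV difference turned to -0.095 for TGAG, -0.030 for GGAT, -0.059 for GGTA, -0.29 for CGTG and 0.11 for GGGG, and the 6-4PP UV difference of GGGG to 0.039. With the mean of log2 spot values AAAA turned to -0.13 on the 6-4PP UV array. The causes of these changes were not tested. No analysis paired over replicate arrays was possible because each antibody and condition had 1 array. Precision is limited by 10 spots a probe, by the ceiling on the 6-4PP UV array and by the low signal of the non-UV arrays.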
